A study of Mus musculus with 47 samples.

Results

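The 8 genes described here move iron into, through and out of cells or break haem down: Tfrc, Slc11a2, Slc40a1, Slc25a37, Slc25a38, Abcb10, Hmox1 and Blvrb. They were chosen by name for these functions, with earlier results of these data known. They are 8 of the 18193 genes that the array table names. In all, 19 of its 45101 probe sets carry one of these symbols alone. Expression was measured on 47 Affymetrix arrays of purified adult bone marrow cells from C57Bl6 mice, each made with biotin-labelled RNA of 2000 cells.

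The labels place the arrays in 17 groups. There were 5 LMPP arrays, 4 each of MkE and PreB, and 3 each of ETP, GMP, MkP, ProE, CFUE and PreCFUE. The groups LTHSC, STHSC, GM, CLP, ProB, IgM+SP, CD4 and NKmature had 2 arrays each. By their usual meaning, LTHSC and STHSC are stem cells and LMPP, MkE, GMP, GM, MkP, CLP and ETP are progenitors. PreCFUE, CFUE and ProE are successive stages on the way to red cells, and they are called the erythroid groups below, with MkE as the progenitor shared with megakaryocytes. No sorting markers, treatments, sexes or ages beyond adult are given in the labels, and no group carries a mutation by them. Replicates are called biological with no animal or pool named, and a p-value here reflects only the variation among the arrays, which may be technical.

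A red cell precursor takes up most of its iron as transferrin bound to the transferrin receptor Tfrc. Inside the endosome Slc11a2 (DMT1) passes the freed iron to the cytosol, and the mitochondrial carrier Slc25a37 (mitoferrin 1), stabilised by Abcb10, brings it into the mitochondrion. Slc25a38 imports glycine there for the first step of haem synthesis. Slc40a1 (ferroportin) is the iron exporter of the plasma membrane. Hmox1 opens the haem ring to biliverdin, releasing iron, and Blvrb is one of the reductases that act on biliverdin and flavins. Tfrc messages and at least some Slc40a1 messages carry iron-responsive elements, which set the stability of the first and the translation of the second. An array measures only the amount of message, and which Slc40a1 messages the probe sets read was not tested.

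RefSeq promoter windows on build GRCm38.p6 were matched for 4 of the 8 genes, and all 4 were among the genes higher in the erythroid groups. They are shown so that sequence words known from erythroid promoters can be read beside the values. Each line gives the 250 bases before the annotated start, 5′ to 3′ on the gene's strand, for the upstream start where a gene has several. Capitals mark the GATA word (GATA with A or T before it and A or G after it), the word CCNCNCCC, which is bound by Klf-type factors, and the word GGGCGG, each on either strand.
Tfrc, chr16:32608646-32608895, plus strand: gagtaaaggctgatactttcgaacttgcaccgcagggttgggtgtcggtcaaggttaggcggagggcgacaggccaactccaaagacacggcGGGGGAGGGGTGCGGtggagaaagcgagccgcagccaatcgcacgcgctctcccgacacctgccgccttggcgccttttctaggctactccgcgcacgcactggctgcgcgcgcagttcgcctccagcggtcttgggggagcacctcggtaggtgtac
Slc25a38, chr9:120110132-120110381, plus strand: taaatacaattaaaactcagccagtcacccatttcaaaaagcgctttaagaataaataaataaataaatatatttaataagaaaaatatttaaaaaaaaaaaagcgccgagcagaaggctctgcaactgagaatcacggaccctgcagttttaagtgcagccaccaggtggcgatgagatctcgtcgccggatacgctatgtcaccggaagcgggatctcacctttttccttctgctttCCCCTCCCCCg
Abcb10, chr8:123983123-123983372, minus strand: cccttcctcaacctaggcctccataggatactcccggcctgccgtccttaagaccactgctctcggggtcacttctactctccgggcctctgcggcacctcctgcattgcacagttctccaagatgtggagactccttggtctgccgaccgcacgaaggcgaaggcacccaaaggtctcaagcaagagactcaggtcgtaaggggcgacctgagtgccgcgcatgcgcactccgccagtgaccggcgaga
Blvrb, chr7:27447728-27447977, plus strand: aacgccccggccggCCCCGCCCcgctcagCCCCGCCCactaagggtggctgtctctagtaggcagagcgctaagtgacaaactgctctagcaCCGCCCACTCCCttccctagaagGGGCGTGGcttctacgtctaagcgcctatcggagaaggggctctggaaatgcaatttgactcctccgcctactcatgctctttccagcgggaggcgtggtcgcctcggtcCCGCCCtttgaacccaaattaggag

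The Tfrc window held CCNCNCCC at 3 overlapping positions and no other word. In the Slc25a38 window it stood at 2 overlapping positions, and the Abcb10 window held none of the words. Blvrb had 4 matches of CCNCNCCC and 4 of GGGCGG, and 3 of the latter overlapped one of the former. The downstream starts differed. The window before the second Tfrc start (chr16:32608872-32609121) held 2 matches of CCNCNCCC and 1 of GGGCGG, and the window before the second Blvrb start (chr7:27452168-27452417) held 1 GATA word. Over all 32851 windows of this length, 26.5% held a GATA word, 45.9% held CCNCNCCC and 32.7% held GGGCGG. GC content was 64.8% in the printed Tfrc window, 62% for Blvrb, 61.6% for Abcb10 and 41.6% for Slc25a38, against a median of 52.4%.

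Values below are log2 of the deposited intensity, with the brightest probe set standing for a gene. Differences are log2 differences of group means ± the standard error of limma's fit to all 47 arrays. A gene is called where the Benjamini-Hochberg adjusted p is under 0.05 over the 13948 genes tested and the change is at least 2-fold. All 8 genes passed the filter for testing. Where arrays of groups are said to overlap or not, the share of all genes doing so was not computed. Array medians of intensity ran from 13.8 to 16.9, replicates correlated at 0.93 to 1.00 over the tested genes, and 46 arrays were closest to an array of their own group. Xist, made from the inactive X, and the Y-linked Eif2s3y split the arrays: 21 carried Xist without Eif2s3y, 19 the reverse and 7 both. MkE, PreCFUE, CFUE and MkP lay in the first class, and ProE, GMP, LTHSC and IgM+SP in the second. For ProE with CFUE, ProE with MkE, GMP with MkE and MkE with LTHSC, group and class cannot be told apart.

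Some arrays stood apart from their labels. Over 7 erythroid markers the mean level was 6.25 on LTHSC replicate 1 and 8.23 on replicate 2, against 5.53 and 6.14 on the STHSC arrays. The arrays labelled ProB carried NK cell markers (mean 8.0 on replicate 1 and 7.61 on replicate 2) and T cell markers (6.65 and 6.66). The mean of 4 B cell markers was 7.12 on replicate 1 and 5.03 on replicate 2. Among these 4 the B cell factor Pax5 was at 3.45 to 4.18. Late red cell messages appeared on lymphoid arrays. Alas2, the erythroid form of the first haem enzyme, was at 8.69 to 8.77 on the ProE arrays and at 2.80 to 4.38 on the 36 arrays outside ProE, PreB, ProB and CD4. It was at 6.95, 10.32, 4.13 and 4.37 on PreB replicates 1 to 4, at 5.34 and 9.66 on the ProB arrays and at 7.53 and 9.30 on the CD4 arrays. Slc4a1, the red cell anion exchanger, followed another order, at 4.57, 8.61, 6.04 and 4.88 on PreB replicates 1 to 4. The mean of the 7 erythroid markers was 4.11 to 5.01 on these 8 arrays against 10.72 to 10.78 in ProE. In such samples, more cells of a type and more RNA per cell cannot be told apart.

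7 of the 8 genes were highest in one of the erythroid groups, and Hmox1 was not. The share of all tested genes highest in these groups was not computed, so the 7 of 8 alone does not set the genes apart. ProE had the highest mean of Tfrc, Slc11a2, Slc40a1, Slc25a37, Slc25a38 and Abcb10, and CFUE that of Blvrb. Group means spanned 7.33 for Slc40a1, 6.99 for Blvrb, 4.65 for Abcb10, 4.44 for Tfrc, 4.14 for Slc11a2, 3.04 for Slc25a38, 3.00 for Slc25a37 and 1.06 for Hmox1. By limma's F-test all 8 differed among the 17 groups, as did 90.3% of all genes tested, so this count does not set them apart. The adjusted p was 0.0106 for Hmox1, 2.40e-05 for Slc25a37 and at most 8.86e-11 for the others.

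**Figure D1:**
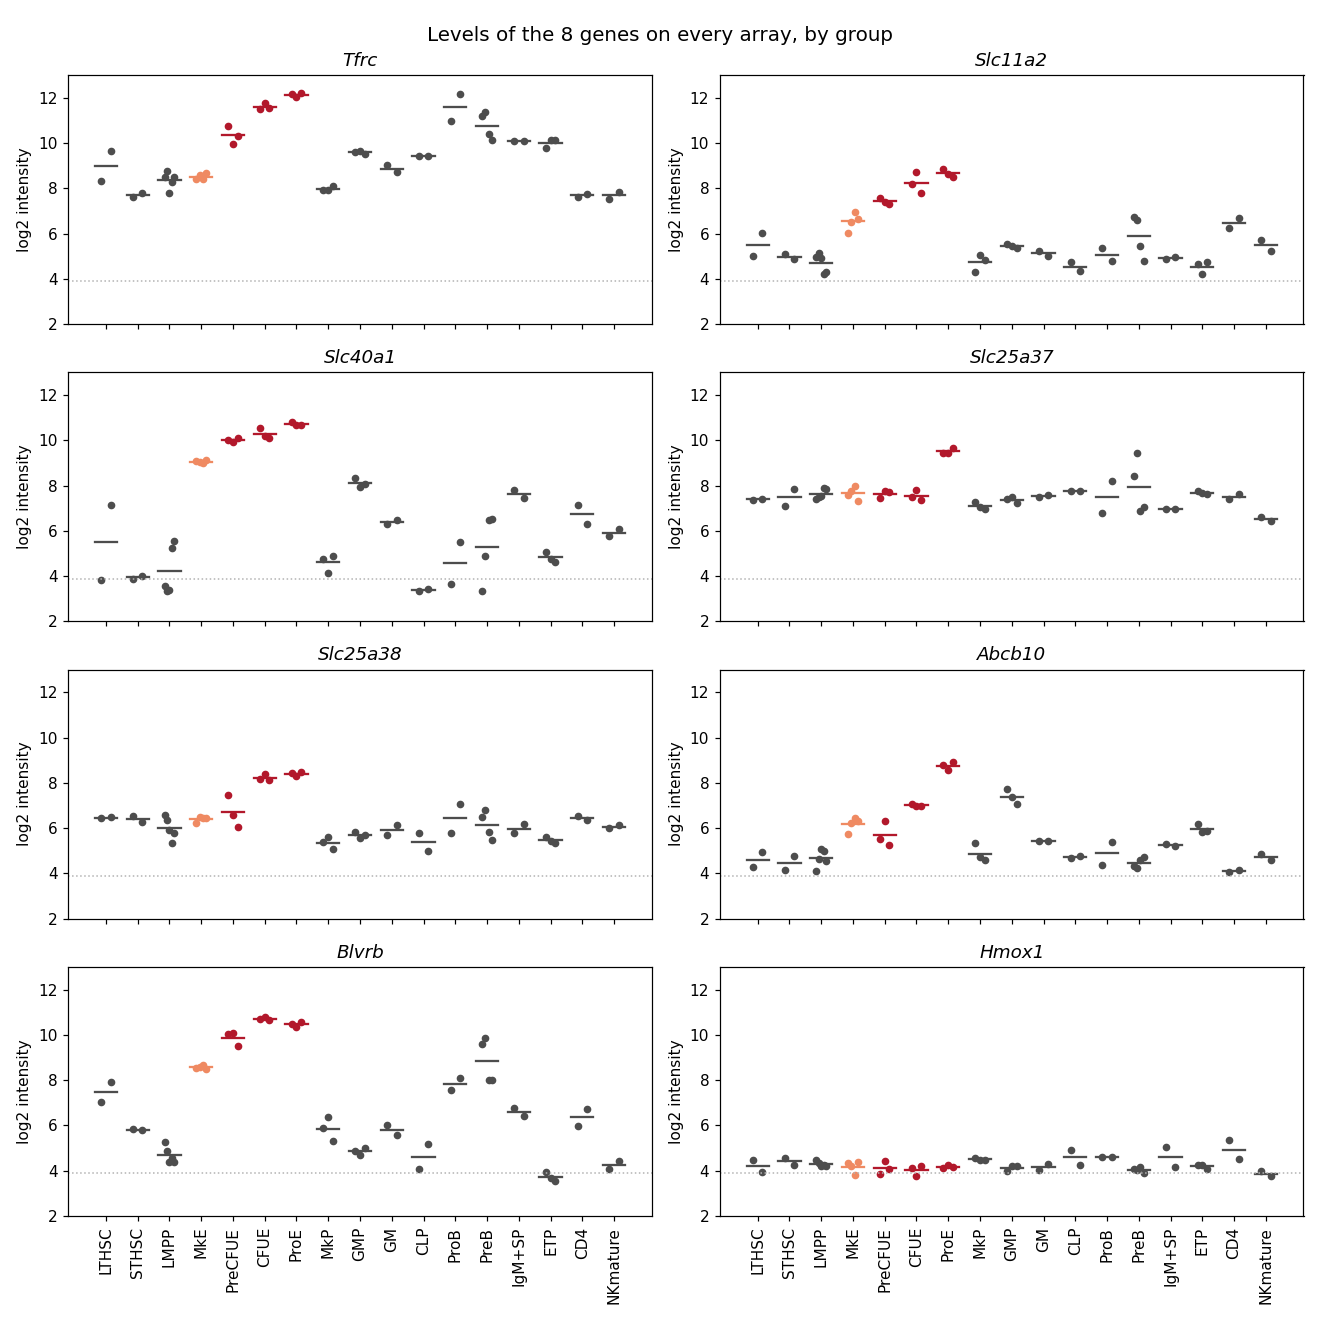
Log2 intensity of each gene on every array (points) with group means (bars), 1 panel per gene and 17 groups along the x axis; MkE is orange, the erythroid groups PreCFUE, CFUE and ProE are red, and the dotted line is the median of all values, 3.89. Slc11a2 and Slc40a1 have no array outside the red groups at or above the lowest red array, while the Tfrc arrays of ProB and PreB reach into the red range and Hmox1 stays between 3.75 and 5.35.

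Against the mean of the 13 other groups without MkE, the erythroid groups had 6 of the 8 genes called higher and 0 lower. Of all genes tested, 11.3% were called higher in this comparison and 10.1% lower, and the median difference was 2.16 over the 8 genes and 0.01 over all genes. Slc40a1 had the widest difference (4.86 ± 0.28, adjusted p = 9.32e-18), followed by Blvrb (4.45 ± 0.16), Slc11a2 (2.92 ± 0.16), Tfrc (2.22 ± 0.13), Abcb10 (2.11 ± 0.12) and Slc25a38 (1.79 ± 0.14). Slc25a37 (0.82 ± 0.16, adjusted p = 4.09e-05) and Hmox1 (-0.24 ± 0.10, adjusted p = 0.0313) passed the p threshold with under 2-fold differences. The 6 calls stood within the arrays with Xist alone, where only PreCFUE and CFUE represent the erythroid groups, and Slc25a37 was at -0.12 there. Among arrays with Eif2s3y alone, where ProE represents them, 7 genes were called and Slc25a37 was at 2.12. Leaving out ProB, PreB and CD4 gave 6 calls, with Blvrb at 4.99. The 11.3% and 10.1% belong to the first comparison, and the shares of all genes called in these alternatives are not given here.

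Tfrc, the receptor that brings transferrin iron into the cell, was higher in each erythroid group than in the one before, and the first 2 of these 3 steps were called. On the MkE arrays it was at 8.40, 8.60, 8.40 and 8.69, on the PreCFUE arrays at 10.73, 9.98 and 10.30, on the CFUE arrays at 11.49, 11.76 and 11.55 and on the ProE arrays at 12.16, 12.02 and 12.21. No array of one of these groups overlapped those of the next. It was called higher in PreCFUE than in MkE (1.82 ± 0.26, adjusted p = 2.71e-06) and in CFUE than in PreCFUE (1.26 ± 0.28, adjusted p = 0.0035, but 1.08 and 0.0508 without PreCFUE replicate 2). The last step, ProE minus CFUE, was 0.53 ± 0.28 (adjusted p = 0.2863), and the whole way from MkE to ProE was 3.61 ± 0.26 (adjusted p = 3.64e-14), about 12.2-fold.

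Tfrc was not particular to the erythroid groups. Of the 38 arrays outside them, 10 reached at least the lowest erythroid array (9.98). These were both arrays labelled ProB (11.00 and 12.19), all 4 of PreB (11.18, 11.38, 10.41 and 10.13), both of IgM+SP (10.09 and 10.10) and ETP replicates 2 and 3 (10.12 and 10.14). Tfrc is also known as a receptor of dividing cells. The mean of 7 cell division genes was 10.14 to 10.25 in ProE, 8.66 to 10.08 in PreB, 7.57 to 7.96 in ProB and 5.33 to 5.36 in CD4, and Tfrc was lowest in CD4 (7.61 and 7.77), NKmature (7.54 and 7.83) and STHSC (7.61 and 7.80). NKmature had 9.26 to 9.33 for the division genes and STHSC 8.80 to 8.89, so the orders differed. In the ordered group means, CFUE (11.60 ± 0.14, SD, n = 3) and ProB (11.59 ± 0.84, n = 2) overlapped, and ProE (12.13 ± 0.10, n = 3) lay above all CFUE arrays.

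Slc11a2, the endosomal iron transporter, stood above all other groups in the erythroid ones. It was at 6.04, 6.50, 6.95 and 6.65 in MkE, at 7.58, 7.39 and 7.32 in PreCFUE, at 8.19, 8.72 and 7.81 in CFUE and at 8.85, 8.65 and 8.49 in ProE. All 9 erythroid arrays lay above all 38 others, whose highest value (6.95) was an MkE array. Each step alone missed the threshold, with PreCFUE minus MkE at 0.89 ± 0.32 (adjusted p = 0.0508, 0.0369 without MkE replicate 3), CFUE minus PreCFUE at 0.81 ± 0.34 (0.2367) and ProE minus CFUE at 0.43 ± 0.34 (0.5423). From MkE to ProE it was called higher by 2.13 ± 0.32 (adjusted p = 8.90e-07). Outside the erythroid groups and MkE, CD4 had the highest mean (6.25 and 6.71), then PreB (6.74, 6.60, 5.43 and 4.80), and both have Alas2 on some arrays. The arrays labelled ProB have it as well, but Slc11a2 was low there (5.37 and 4.78). On PreB the higher pair of Slc11a2 values was on the replicates with the higher Alas2. The part of those messages in these values was not tested.

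Slc40a1, the iron exporter, was already well above most groups in MkE. It was at 9.07, 9.04, 9.01 and 9.12 in MkE, at 10.02, 9.93 and 10.11 in PreCFUE, at 10.53, 10.19 and 10.11 in CFUE and at 10.81, 10.66 and 10.66 in ProE. The single steps were 0.96 ± 0.57 (adjusted p = 0.3117), 0.25 ± 0.61 (0.9427) and 0.44 ± 0.61 (0.7821), none of them called, although the arrays of MkE and PreCFUE did not overlap. The fit uses 1 estimate of spread over all 17 groups, among them LTHSC, PreB and LMPP, whose Slc40a1 values lay far apart. ProE was called higher than MkE (1.65 ± 0.57, adjusted p = 0.0209, but 0.0627 without ProE replicate 1). The direction of that difference turned to -0.72 with the Xist and Eif2s3y class as a block. PreB is the only group with arrays of both these classes, so such a block moves a difference between them by the gap between PreB replicates 1 and 2 and PreB replicates 3 and 4.

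Outside the erythroid path, Slc40a1 split the groups. GMP (8.34, 7.92 and 8.08) and IgM+SP (7.81 and 7.44) followed MkE without overlap, then CD4 (7.14 and 6.31) and GM (6.31 and 6.48). MkP (4.78, 4.15 and 4.89), STHSC (3.87 and 4.02) and CLP (3.34 and 3.43) were at the low end. Several groups were split within themselves. LTHSC had 3.84 and 7.13, PreB 3.33, 4.90, 6.46 and 6.52, and LMPP 3.56, 3.35, 3.39, 5.24 and 5.56, so a group mean stands for no single array there. The high LTHSC array was the one with the higher erythroid markers and the higher mean of cell division genes (7.64 against 5.38). The mean of 8 neutrophil granule markers moved with the splits of PreB (4.04, 5.81, 8.58 and 8.54) and LMPP (6.19, 6.73, 6.16, 8.62 and 8.56), but not with that of LTHSC (5.87 and 5.56). It was 9.96 to 10.22 in GMP, and 9.44 and 7.78 on the IgM+SP arrays. The granule mean was also high in NKmature (9.01 and 9.14), where Slc40a1 was at 5.76 to 6.09, and in GM (8.79 and 9.86). On the ProB arrays it was 5.18 and 8.16, with Slc40a1 at 3.66 to 5.52. The part of such cells in the Slc40a1 values was not tested.

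Slc40a1 is also a gene of iron-recycling macrophages. Over 12 macrophage markers the mean was 3.59 to 3.87 on the erythroid arrays, with 3 to 6 of the 12 over the median of all values, and 3.83 to 4.02 in MkE. It was highest in IgM+SP (4.95 to 5.10, 10 of 12 over the median), and 4.48 to 4.57 in GMP and 4.64 to 4.68 in CD4. ProB (4.60 to 4.68), GM (4.53 to 4.69) and CLP (4.44 to 4.53) had similar marker means. Their Slc40a1 group means were 4.59, 6.40 and 3.38, the last being the lowest of all groups. Only a few of the 12 markers are given singly, and the others enter through the means. Adgre1 was at 3.70 to 4.32, Spic at 2.86 to 3.45 and Cd163 at 3.20 to 4.07 on the 9 erythroid arrays. In MkE the Cd163 mean was 4.79. Cd163 was called higher in MkE than in LTHSC (1.83 ± 0.33), and lower than in MkE both in MkP (-1.49 ± 0.29) and in ProE (-1.15 ± 0.29). On the IgM+SP arrays Adgre1 was at 5.62 and 6.06, while Spic and Cd163 are not given for them. The part of macrophages in the Slc40a1 level of IgM+SP was not tested.

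Among the mitochondrial genes, Slc25a38 and Abcb10 were first called higher in CFUE and Slc25a37 in ProE. Slc25a37, the iron carrier of the inner membrane, overlapped from MkE to CFUE and was higher in ProE. It was at 7.61, 7.77, 8.0 and 7.32 in MkE, at 7.45, 7.76 and 7.70 in PreCFUE, at 7.49, 7.82 and 7.34 in CFUE and at 9.46, 9.46 and 9.66 in ProE. The first 3 groups overlapped and every ProE array lay above all other arrays of the series, the nearest being PreB replicate 2 at 9.42. PreCFUE minus MkE was -0.04 ± 0.33 and CFUE minus PreCFUE -0.09 ± 0.35, and ProE was called higher than CFUE by 1.97 ± 0.35 (adjusted p = 1.71e-04), about 3.93-fold.

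Beyond ProE, Slc25a37 differed little among groups, with means from 6.52 ± 0.15 (SD, n = 2) in NKmature to 7.95 ± 1.19 (n = 4) in PreB. PreB replicates 1 to 4 were at 8.41, 9.42, 6.89 and 7.08 and the ProB arrays at 6.77 and 8.19, and the higher arrays were those with more Alas2. The CD4 arrays, with Alas2 at 7.53 and 9.30, had Slc25a37 at 7.42 and 7.61, inside the range of the other groups.

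**Figure D2:**
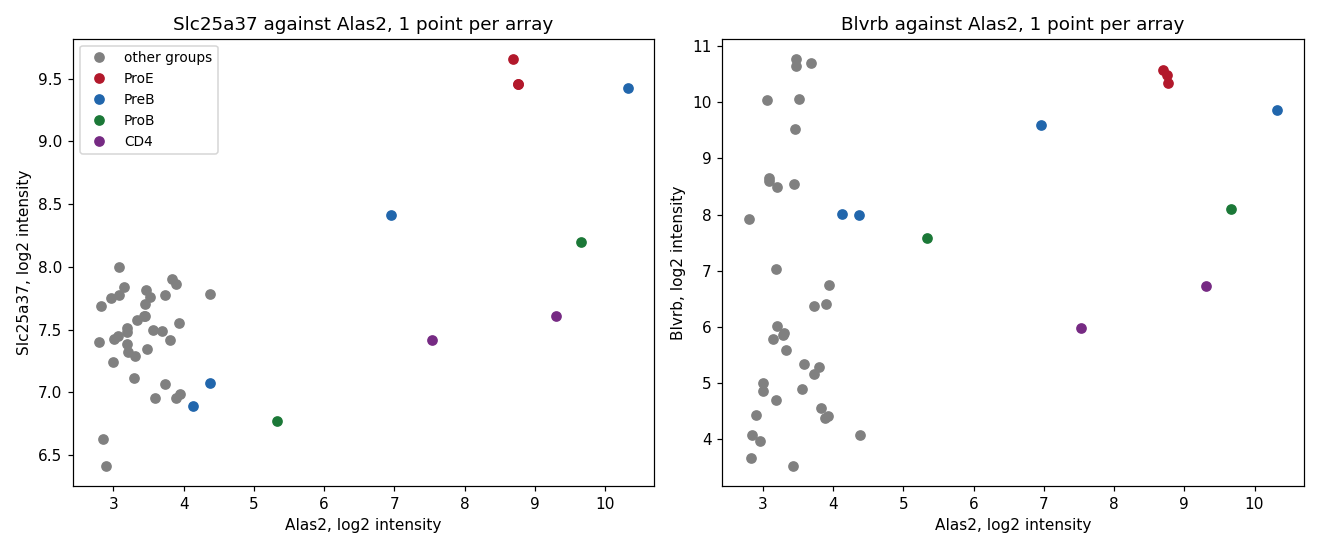
Log2 intensity of Slc25a37 (left) and Blvrb (right) against that of Alas2, a late erythroid message, 1 point per array over all 47 arrays; colours mark ProE, PreB, ProB and CD4, and grey the other groups. PreB replicates 1 and 2 and ProB replicate 2 have Alas2 at 6.95 to 10.32 and Slc25a37 at 8.19 to 9.42, while Blvrb is at 10.65 to 10.77 on the grey CFUE arrays, where Alas2 is at 3.47 to 3.69.

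Slc25a38, the glycine carrier, was higher one stage earlier. Its MkE values were 6.21, 6.50, 6.43 and 6.46, its PreCFUE values 7.47, 6.60 and 6.05, its CFUE values 8.16, 8.38 and 8.11 and its ProE values 8.43, 8.29 and 8.48. PreCFUE was the spread group (SD 0.72), overlapping MkE, and CFUE and ProE lay above every array of all other groups. CFUE was called higher than PreCFUE by 1.51 ± 0.31 (adjusted p = 0.0012), while the steps before it (0.31 ± 0.29, 0.6000) and after it (0.19 ± 0.31, 0.8263) were not called. Elsewhere group means lay between 5.36 in MkP and 6.46 in LTHSC and in CD4, and most neighbours in that order overlapped.

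Abcb10, the inner membrane transporter that binds Slc25a37, took its 2 steps after PreCFUE. It was at 5.72, 6.25, 6.44 and 6.33 in MkE, at 5.51, 6.32 and 5.24 in PreCFUE, at 7.05, 6.98 and 7.0 in CFUE and at 8.79, 8.58 and 8.92 in ProE. MkE and PreCFUE overlapped (-0.50 ± 0.25, adjusted p = 0.2016), and CFUE and ProE each lay above the group before. It was called higher in CFUE than in PreCFUE (1.32 ± 0.26, adjusted p = 8.84e-04) and in ProE than in CFUE (1.75 ± 0.26, adjusted p = 1.22e-05). Among the 8 genes Abcb10 also had the highest standing of GMP, at 7.71, 7.37 and 7.06, which was second only to ProE and without overlap with CFUE. Its second probe set, 1416403_at, had the reverse order, with GMP at 5.73 to 6.2 and CFUE at 6.44 to 6.90. The lowest levels were in CD4 (4.08 and 4.15) and PreB (4.33, 4.26, 4.58 and 4.70).

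Blvrb had its highest mean in CFUE. It was at 8.55, 8.60, 8.65 and 8.49 in MkE, at 10.04, 10.06 and 9.53 in PreCFUE, at 10.70, 10.77 and 10.65 in CFUE and at 10.49, 10.35 and 10.57 in ProE. Neighbouring groups on this path did not overlap. PreCFUE was called higher than MkE (1.30 ± 0.33, adjusted p = 0.0040), and the later steps were 0.83 ± 0.35 (0.2313) and -0.24 ± 0.35 (0.7958). Away from the path, PreB was highest at 9.60, 9.86, 8.01 and 7.99, then ProB at 7.58 and 8.10 and LTHSC at 7.02 and 7.92. PreB replicates 1 and 2 were the only 2 of 38 other arrays that reached the lowest erythroid array (9.53). ETP was lowest, at 3.96, 3.66 and 3.52, close to the median of all values.

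Hmox1, the inducible haem oxygenase, stayed low on all arrays. Its group means ran from 3.87 ± 0.15 (SD, n = 2) in NKmature to 4.93 ± 0.59 (n = 2) in CD4, where its arrays were at 5.35 and 4.51, the first being the highest of the series. On the erythroid arrays it lay between 3.75 and 4.44, and on MkE at 4.33, 4.18, 3.80 and 4.40. ProE minus MkE was 0.00 ± 0.19 (adjusted p = 0.9964). Each of the 17 groups overlapped its neighbour in the order of means.

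**Figure D3:**
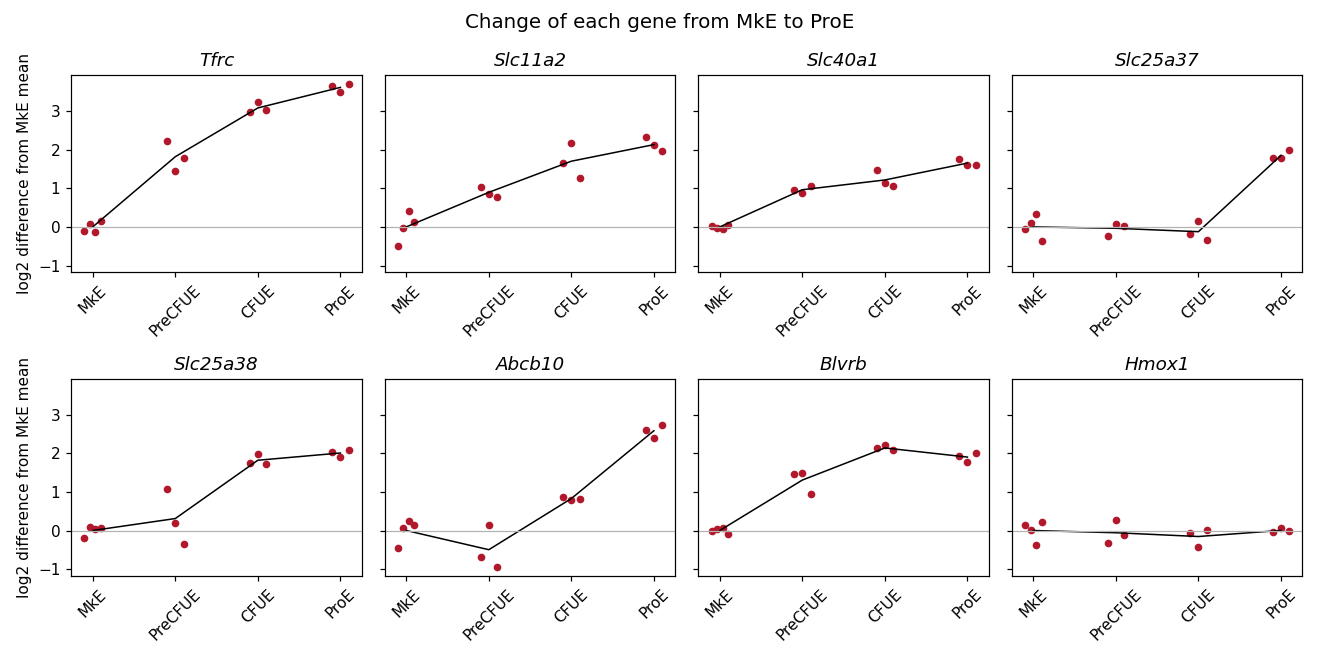
Log2 difference of each array from the MkE mean of its gene, for MkE, PreCFUE, CFUE and ProE in that order; points are arrays and lines join group means. Tfrc, Slc11a2, Slc40a1 and Blvrb lie above all MkE arrays from PreCFUE on, Slc25a38 and Abcb10 from CFUE on and Slc25a37 in ProE, while Hmox1 overlaps MkE throughout. Slc11a2 and Slc40a1 were not called in PreCFUE minus MkE (adjusted p = 0.0508 and 0.3117, limma). The share of all genes without overlap was not computed.

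At each step of the erythroid path 2 or 3 of the 8 genes were called, Tfrc at the first and the second and Abcb10 at the second and the third. From MkE to PreCFUE 2 of 8 were called higher (Tfrc and Blvrb) and 0 lower, where 2.87% of all genes were called higher and 4.45% lower. From PreCFUE to CFUE it was 3 (Tfrc, Slc25a38 and Abcb10) and 0, against 1.08% and 1.58% of all genes. From CFUE to ProE it was 2 (Slc25a37 and Abcb10) and 0, against 1.78% and 2.84%. Over the whole way, ProE minus MkE, 7 of 8 were called higher and 0 lower, against 9.49% and 11.0%, and the median difference was 1.95 for the 8 genes and 0.00 for all genes. These comparisons share arrays, since each middle group enters 2 steps. From MkE to ProE, 7 of 7 cell division genes and 4 of 7 erythroid markers were called higher too, and their part in these values was not tested.

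Whether the steps differ from each other was tested in the same fit, a comparison added after the values were known. The third step was larger than the first for Slc25a37 (2.01 ± 0.48, adjusted p = 0.0037) and Abcb10 (2.25 ± 0.36, adjusted p = 2.24e-05), and smaller for Tfrc (-1.28 ± 0.39, 0.0214) and Blvrb (-1.54 ± 0.48, 0.0257). The difference between these steps passed at an adjusted p under 0.05 for 13.2% of all genes. The Tfrc and Blvrb differences lost the threshold without single arrays, for Tfrc at 0.0577 without CFUE replicate 2, 0.0852 without PreCFUE replicate 1 and 0.0520 without ProE replicate 2. For Blvrb the same 3 gave 0.0553, 0.0641 and 0.0601, and leaving out PreCFUE replicate 2 gave 0.0648. Differences between steps were not tested with the other probe sets, and for Tfrc these did not share an order. Tfrc 1422967_a_at was at 0.30 in PreCFUE minus MkE and at 1.28 in ProE minus CFUE, opposite to the brightest. Its means in MkE (3.13) and PreCFUE (3.42) lay under the median of all values. Tfrc 1422966_a_at was at 1.34 and 1.00, in the order of the brightest but closer together. Between the second and first step Abcb10 alone passed (1.82 ± 0.45, adjusted p = 0.0278, beside 1.30% of all genes), a result lost without PreCFUE replicate 1 (1.64, 0.1297) or 3 (1.37, 0.4456) or CFUE replicate 1 (0.0523) or 2 (0.0508). The third step, unlike the first, compares groups of different Xist and Eif2s3y classes. With the class block, set by the PreB arrays, the difference between these steps was -0.27 for Tfrc (0.7637) and 0.18 for Blvrb (0.8500). None of the 8 passed between the third and second step, where 1.11% of all genes did. For Slc25a37 that difference was 2.06 ± 0.61 (adjusted p = 0.1019).

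**Figure D4:**
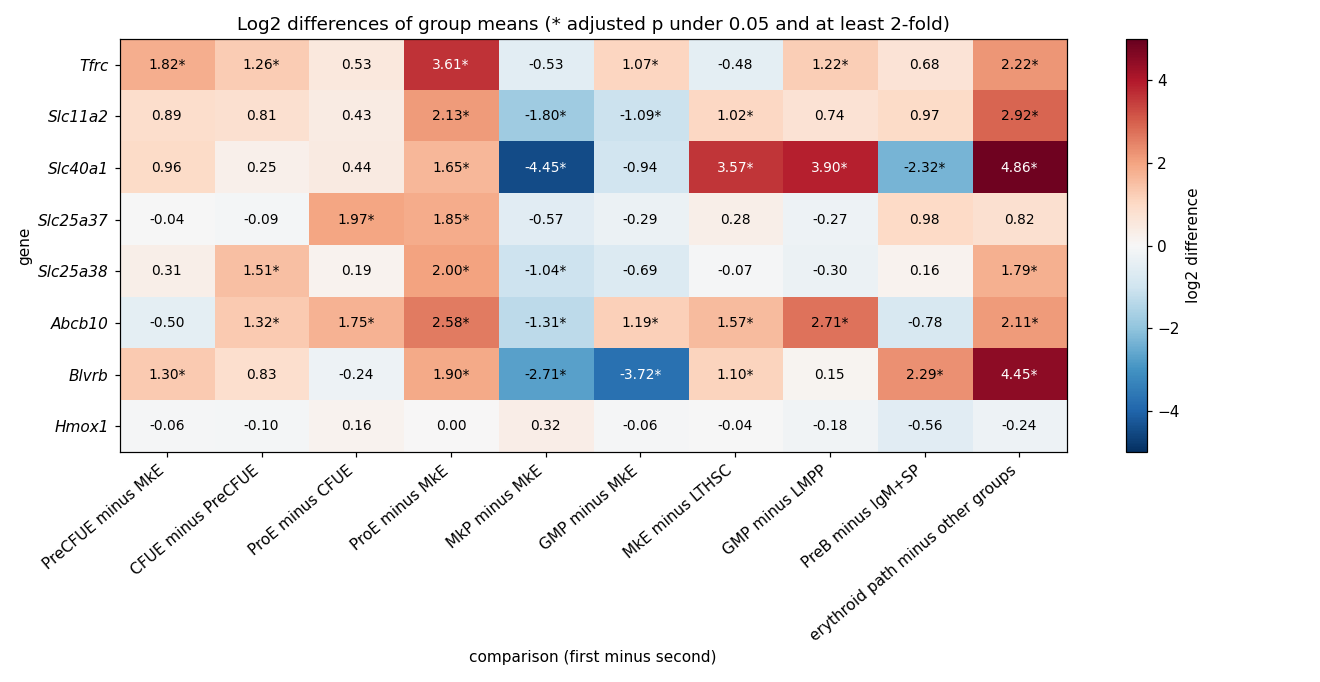
Log2 difference of group means for each gene (rows) in 10 comparisons (columns, first group minus second), as colour and number; an asterisk marks an adjusted p under 0.05 with at least 2-fold change. ProE minus MkE has 7 genes marked higher, MkP minus MkE has 5 marked lower, and Hmox1 is marked in none.

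In MkP, the megakaryocyte progenitor, most of the genes were lower than in MkE. In MkP minus MkE, 5 of 8 were called lower and 0 higher, against 8.55% lower and 2.96% higher of all genes tested, with medians of -1.17 and -0.08. Slc40a1 fell by 4.45 (± 0.57, adjusted p = 1.72e-07), Blvrb by 2.71 (± 0.33), Slc11a2 by 1.80 (± 0.32), Abcb10 by 1.31 (± 0.25) and Slc25a38 by 1.04 (± 0.29, adjusted p = 0.0061). The size depended on the probe set. Slc40a1 1448566_at was called lower at only -1.41 ± 0.29. Slc11a2 1417584_at (-1.79) and 1426441_at (-1.08) and Abcb10 1416403_at (-1.12) were called lower. Slc11a2 1441709_at (-0.046) and Abcb10 1454265_a_at (0.11) were not called. On the MkP arrays Blvrb was at 5.88, 6.36 and 5.33 and Slc11a2 at 4.30, 5.07 and 4.85, each below every MkE array. The Slc25a38 call was under 2-fold without MkP replicate 3 (-0.90) and after quantile normalization again (-0.85). Tfrc (-0.53 ± 0.26, adjusted p = 0.1230) and Slc25a37 (-0.57 ± 0.33, 0.1917) did not pass, although their MkP and MkE arrays did not overlap. Both groups carried Xist and no Eif2s3y.

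GMP had some of these genes higher than MkE and others lower. In GMP minus MkE, 2 of 8 were called higher and 2 lower, against 8.77% and 6.79% of all genes. Abcb10 (1.19 ± 0.25, adjusted p = 2.10e-04, under 2-fold at 0.79 with probe set 1416403_at) and Tfrc (1.07 ± 0.26, adjusted p = 0.0016) were higher, Tfrc at 9.63, 9.63 and 9.53. Blvrb (-3.72 ± 0.33, adjusted p = 6.78e-12) and Slc11a2 (-1.09 ± 0.32, adjusted p = 0.0078, under 2-fold at -0.95 without MkE replicate 3) were lower. Slc40a1 was at -0.94 ± 0.57 (adjusted p = 0.2427). The groups share no Xist and Eif2s3y class, and the class block, which rests on the PreB arrays, moved most of these values. With it Abcb10 lost its call (0.85, adjusted p = 0.1113), Slc40a1 was called lower (-3.32, 0.0010), Slc25a37 was called higher (1.64, 6.37e-04) and Slc11a2 was at 0.46 (0.4349).

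Set against LMPP, GMP had 3 genes called higher and 0 lower, against 10.6% and 6.24% of all genes. These were Slc40a1 (3.90 ± 0.55, adjusted p = 4.37e-07), Abcb10 (2.71 ± 0.24, adjusted p = 1.28e-11) and Tfrc (1.22 ± 0.25, adjusted p = 1.82e-04). Slc40a1 was higher on every GMP array than on any LMPP array, including LMPP replicates 4 and 5. With only LMPP replicates 1 and 2, which share the class of GMP, Slc40a1 was at 4.66 and Abcb10 at 3.01, while Tfrc was at 0.97 and under 2-fold.

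Between LTHSC and MkE the calls depended on which stem cell array was used. In MkE minus LTHSC 4 of 8 were called higher and 0 lower, against 8.98% and 10.3% of all genes: Slc40a1 (3.57 ± 0.65, adjusted p = 3.89e-05), Abcb10 (1.57 ± 0.28, 3.01e-05), Blvrb (1.10 ± 0.37, 0.0202) and Slc11a2 (1.02 ± 0.36, 0.0278). Without either LTHSC array the other stands alone and is assumed to vary like the other groups. The LTHSC arrays differed in cell division genes as well as in erythroid markers. The mean of the 7 cell division genes was 5.38 on replicate 1 and 7.64 on replicate 2. The part of either difference in the values below was not tested. Without replicate 1, which leaves the array with the higher erythroid markers, Slc40a1 was at 1.92 (adjusted p = 0.0619), Blvrb at 0.65 (0.3923) and Slc11a2 at 0.52 (0.5048). Abcb10 kept its call at 1.23 (0.0121), and Tfrc was called lower at -1.14 (0.0183). Without replicate 2 all 4 were called, with Slc40a1 at 5.22, Abcb10 at 1.92, Blvrb at 1.55 and Slc11a2 at 1.53. Slc11a2 also missed the threshold without MkE replicate 3 (0.0805) or 4 (0.0520). With the class block, again set by the gap within PreB, 2 genes were called higher (Slc40a1 and Abcb10) and 3 lower: Slc25a37 (-1.66, adjusted p = 7.00e-04), Tfrc (-1.49, 0.0029) and Slc25a38 (-1.04, 0.0465). Slc11a2 (-0.53) and Blvrb (-0.62) then pointed the other way and were not called. For these alternative fits of MkE minus LTHSC the shares of all genes called are not given here.

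In the B lineage, PreB minus IgM+SP had 1 gene called higher and 1 lower, against 9.43% and 3.40% of all genes. Blvrb was higher in PreB (2.29 ± 0.37, adjusted p = 1.63e-05) and Slc40a1 lower (-2.32 ± 0.65, adjusted p = 0.0084). In the same comparison 4 of 11 tested macrophage markers were called lower and 0 higher (median -0.86), and 7 of 7 cell division genes were called higher. The 8 neutrophil granule markers had a median of -1.95, with none called. The part of these cells in the 2 calls was not tested. Without PreB replicates 1 and 2, the pair with more Alas2 and with Xist, Blvrb was at 1.43 (0.0023) and Slc40a1 at -1.14 (0.3130). The arrays kept were not free of late red cell message, since Slc4a1 was at 6.04 on PreB replicate 3 and at 6.35 on IgM+SP replicate 2. Slc25a37 was at 0.98 ± 0.38 (adjusted p = 0.0550) on all arrays and 0.01 without that pair, and Slc11a2 at 0.97 ± 0.36 and 0.19. Slc40a1 was also lost without PreB replicate 1 (-1.67, 0.0546) or IgM+SP replicate 1 (-2.14, 0.1043), and neither gene passed when these 6 arrays were fitted alone (0.1126 for Blvrb, 0.2154 for Slc40a1). Slc25a37 and Slc11a2 were called higher without PreB replicate 3 or 4. Other probe sets also gave other calls. Slc40a1 1448566_at was not called (-0.71 ± 0.33, adjusted p = 0.1314). Slc11a2 was called higher with 1417584_at (1.75 ± 0.39, adjusted p = 0.0014) and 1426441_at (1.02 ± 0.23, 0.0015), but not with 1441709_at (0.14 ± 0.25, 0.7570).

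The other probe sets of these genes bear on how far each value can be taken. Tfrc had 6 probe sets, of which 3 are the array's own control sets for the 5′, middle and 3′ part of the message. In ProE minus MkE the other 2 gave 3.49 ± 0.24 and 3.18 ± 0.38 beside 3.61, and both also passed in ProE minus CFUE (1.00 and 1.28) where the brightest did not. One of them, 1422967_a_at, was at 0.30 in PreCFUE minus MkE and at -0.048 in GMP minus MkE, and it was over the median of all values in 4 of 17 groups. The second Slc40a1 probe set, 1448566_at, gave 3.33 ± 0.29 for ProE minus MkE and already 2.06 ± 0.29 (adjusted p = 2.07e-06) for PreCFUE minus MkE, where the brightest gave 0.96. For MkE minus LTHSC it gave 0.91 and was under 2-fold.

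The Slc11a2 probe sets also differed in size. In ProE minus MkE 1426441_at gave 1.88 ± 0.20 and 1441709_at 1.15 ± 0.22, but 1417584_at gave 0.50 ± 0.34 (adjusted p = 0.2995), with means of 6.91 in MkE and 7.41 in ProE. Against the other groups all 4 were called higher in the erythroid groups, from 1.24 to 2.92. Messages of this gene with different ends are known, one with an iron-responsive element and one without, and which of them each probe set reads was not tested here. Of the 3 Abcb10 probe sets, 1416403_at gave 2.55 ± 0.26 for ProE minus MkE, beside 2.58. The third, 1454265_a_at, was over the median in 1 group only and was called in none of the 10 comparisons (0.02 for ProE minus MkE, 0.05 for the erythroid groups against the others). Slc25a37, Slc25a38, Hmox1 and Blvrb had 1 probe set each.

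**Figure D5:**
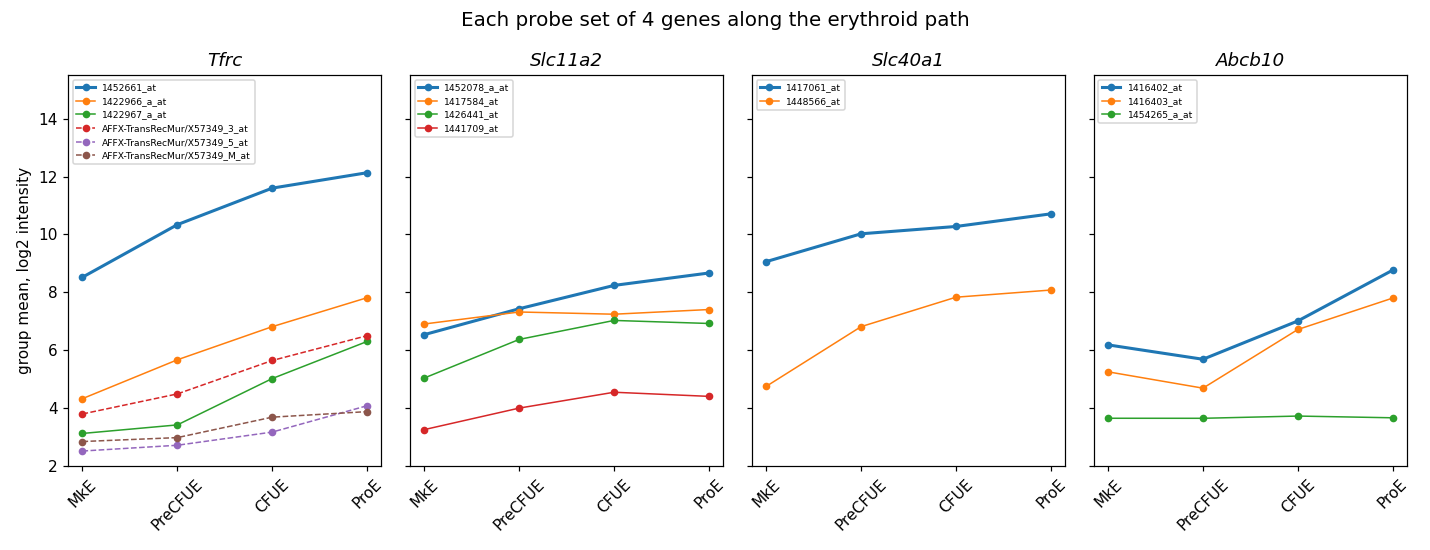
Group means of log2 intensity for every probe set of Tfrc, Slc11a2, Slc40a1 and Abcb10 from MkE to ProE; the thick line is the brightest probe set and dashed lines are control probe sets of the array. All Tfrc and Slc40a1 lines end higher in ProE than in MkE, Slc11a2 1417584_at moves by 0.50 and Abcb10 1454265_a_at by 0.02.

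Other genes of the pathway are given by lists written with earlier results of these data known. Of 16 tested genes of iron uptake, storage and control, 4 were called higher and 2 lower in the erythroid groups against the others, where 11.3% of all genes were higher and 10.1% lower (median 0.21, all genes 0.01). The share of lower calls is near that of all genes. The higher ones were Tfr2, a second transferrin receptor that works in iron sensing (4.90 ± 0.13), the metal importer Slc39a8 (3.41 ± 0.17), the endosomal ferrireductase Steap3 (2.50 ± 0.15) and Aco1, which as an apoprotein binds iron-responsive elements (1.85 ± 0.19). Lcn2 (-1.5 ± 0.48) and Hfe (-1.15 ± 0.12) were lower. From MkE to ProE, Slc39a8 (3.96 ± 0.33) and the ferritin heavy chain Fth1 (1.02 ± 0.16) were higher and Slc39a14 lower (-1.44 ± 0.25). Of all genes, 9.49% were higher there and 11.0% lower, so 2 and 1 of 16 do not set this list apart.

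Of 14 genes of mitochondrial iron and iron-sulphur assembly, 9 were higher in the erythroid groups and 0 lower (median 1.45). Of all genes, 11.3% were higher in that comparison and 10.1% lower. The 9 higher genes included the transporter Abcb6 (2.90 ± 0.14), Tmem14c (2.04 ± 0.18), which moves a haem precursor into mitochondria, the glutaredoxin Glrx5 (1.98 ± 0.11) and Lyrm4 (1.91 ± 0.10). In ProE minus MkE 8 of the 14 were higher, against 9.49% of all genes. The co-chaperone Hscb was lower (-1.54 ± 0.27), and 1 of 14 is no more than the 11.0% of all genes. Of 8 tested haem synthesis enzymes, 6 were higher against the other groups (median 2.22), led by Alad (3.71 ± 0.19) and Cpox (2.83 ± 0.12). From CFUE to ProE, the step of Slc25a37, 3 were higher, against 1.78% of all genes: Alas2 (5.19 ± 0.82), Uros (1.92 ± 0.28) and Ppox (1.67 ± 0.49). On MkP, 5 of the 16 uptake and storage genes, 4 of the 14 mitochondrial genes and 2 of the 8 enzymes were lower than in MkE, and 0 of any of these lists were higher. Of all genes, 8.55% were lower there and 2.96% higher.

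Around Hmox1 and Blvrb, 3 of 10 tested genes of haem movement and bile pigment were higher in the erythroid groups (median 0.04), against 11.3% of all genes. The lower calls were 1 of 10, no more than the 10.1% over all genes. The haem exporters Abcg2 (2.47 ± 0.12) and Flvcr1 (2.01 ± 0.13) and the main biliverdin reductase Blvra (1.63 ± 0.12) were higher, and the lower gene was haptoglobin Hp (-1.55 ± 0.18). Of 10 tested genes with Bach1 and Nfe2l2, the regulators known for Hmox1, 4 were higher and 0 lower (median 0.46), beside the same 11.3% and 10.1%. These were the glutathione synthesis genes Gclm (2.82 ± 0.11) and Gclc (1.54 ± 0.12), Nfe2l2 itself (1.5 ± 0.13) and Nqo1 (1.33 ± 0.09). Bach1, a haem-sensing repressor, was lower in ProE than in MkE (-1.18 ± 0.32, adjusted p = 0.0033), and Hmox1 was at 0.00 there.

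As a description over the 17 group means, which share their arrays, the 8 genes were alike to different degrees. Slc11a2 ran closest to Slc25a38 (Pearson r = 0.90), Slc40a1 (0.87) and Blvrb (0.85). Slc25a37 reached at most 0.60, with Abcb10, and Hmox1 ran from -0.41 to -0.05 with the other 7. Among 7198 genes whose group means span at least 2, the most alike to Slc11a2 were Klhl12 (0.95), Fech (0.93), the enzyme that puts iron into haem, and Cdr2 (0.92). Slc25a38 was followed by Tbccd1 (0.95), Nudt9 (0.92) and Plpp1 (0.92), Slc40a1 by Daam1 (0.94), Minpp1 (0.91) and Etf1 (0.91), and Abcb10 by Slc22a4 (0.92), Cep290 (0.91) and Tmtc3 (0.91). Blvrb was followed by Pmm1 (0.93), Mmp14 (0.90) and Eif2ak1 (0.90), the haem-regulated kinase that checks translation. The nearest to Tfrc were Zdhhc14 (0.83), Plxdc1 (0.81) and Pkig (0.80), with their highest means in ProB, ProB and PreB, and those to Slc25a37 were Ypel4 (0.83), Redrum (0.82) and Apol8 (0.81), highest in ProE. For Hmox1 they were Stx1a (0.86), Lta (0.83) and Slfn5 (0.80), all highest in CD4.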

How the data were processed

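The authors deposited linear intensity values per probe set for each array, which the design text of the series says were made with RMA. Which program made them, and how it scaled them, is not given in the sources used here. These intensities were taken to log2 without a pseudocount. The brightest non-control probe set stood for a gene, and a gene was tested where the mean of 1 or more groups exceeded 3.89, the overall median. Group means of all 47 arrays were fitted with limma 3.58.1 in R 4.3.3, and p-values were adjusted by Benjamini-Hochberg over 13948 genes. The number of arrays limits the precision. The fit was tested on simulated data. Promoter sequences and words are from RefSeq.

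The genes and lists were chosen with earlier results of these data known. Named in the text are the 8 genes, up to 4 called genes per list and direction by size, and the 3 genes most alike to each by Pearson r. Alternatives were other probe sets and their mean, centring, quantile normalization, filters, the compared arrays alone, a replicate block and leaving out each array. The late erythroid genes, the Xist and Eif2s3y classes and fits without doubted arrays were added after seeing the data.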

Additional observations from a re-analysis of the deposited data

How the results depend on the processing

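Counts of called genes among the 8 stayed within 1.5 times of the first value in 239 recomputed values and moved further in 14. Using the mean of all probe sets gave 1 for ProE minus CFUE and 1 for GMP minus MkE. With the Xist and Eif2s3y class as a block, chosen after seeing the data, ProE minus CFUE had 6 and PreB minus IgM+SP had 1. For PreB minus IgM+SP, centring on the array median gave 4, the compared arrays alone 0, arrays with Eif2s3y alone 1 and leaving out PreB replicates 1 and 2 gave 1. Without single arrays the counts ran from 1 to 4 for PreB minus IgM+SP, 2 to 4 for MkE minus LTHSC, 2 to 3 for CFUE minus PreCFUE and for PreCFUE minus MkE, 3 to 4 for GMP minus MkE, 4 to 5 for MkP minus MkE and 6 to 7 for ProE minus MkE. They stayed at 2 for ProE minus CFUE, 3 for GMP minus LMPP, 6 for the erythroid groups against the others and 8 for the F-test. The shares of all genes called in the alternative fits are not given here.

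For single genes, 71 values had the opposite sign to the first fit. In 57 of them neither fit made a call, and 14 were called in one fit or in both. With the class block, which PreB alone determines between the Xist and the Eif2s3y arrays, the 14 included Blvrb in ProE minus CFUE (1.49), Slc40a1 in ProE minus MkE (-0.72), Slc25a37 (1.64) and Slc11a2 (0.46) in GMP minus MkE, Slc25a37 (-1.66), Slc11a2 (-0.53) and Blvrb (-0.62) in MkE minus LTHSC, and Blvrb in the third minus the first step (0.18). With single probe sets they included Tfrc 1422967_a_at in GMP minus MkE (-0.048), Slc11a2 1441709_at in MkE minus LTHSC (-0.063) and Abcb10 1454265_a_at in ProE minus CFUE (-0.060), MkP minus MkE (0.11), GMP minus MkE (-0.040) and GMP minus LMPP (-0.022). The cause was not tested.

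Replicate numbers did not pair the arrays: correlations of same-numbered arrays ran from -0.38 to 0.40. With the replicate number as a block, PreB minus IgM+SP had 4 genes called. The share of all genes called in that fit is not given here, so the count does not set the genes apart.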
